A study of Trachemys scripta with 4 samples.

Results

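The proteasome and chaperone genes are the genes whose products fold, refold and degrade proteins. They were selected by gene symbol alone, as the subunits and partners of the proteasome (PSMA to PSMG), the chaperonin CCT, the heat shock proteins (HSP) of every size class, the J proteins (DNAJA, DNAJB and DNAJC), the protein disulfide isomerases, calreticulin, calnexin, and the stress transcription factors XBP1, ATF4, ATF6, HSF1 and HSF2. HSPG2, a matrix proteoglycan whose symbol only looks alike, was left out. The selection held 118 of the 15289 genes in the deposited table. No expression value entered the rule, but members and lists were chosen with earlier results of these data known. All 118 passed the filter of at least 1 TPM in at least 2 columns that 15100 of the 15289 genes passed. By their known place in the cell, 39 belong to the proteasome, 44 are chaperones of the cytosol and nucleus, 9 are mitochondrial chaperones, 21 are chaperones of the endoplasmic reticulum (ER), and 5 are transcription factors.

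Polyadenylated RNA was sequenced from peripheral nerves, the brachial and sacral plexus, of embryos of the pond slider turtle *Trachemys scripta*. No treatment or genotype was given in the labels, which tell the groups apart by embryonic stage, st.19 and the later st.21. The study states 1 sample per stage, and the table holds 2 columns for each, labelled R1 and R2 and called replicate 1 and replicate 2 here. With 1 sample each, stage cannot be told apart from embryo or library. Eggs of both stages came from oxytocin-injected females and were incubated alike, and because the nerves were very small, surrounding tissue may have been taken with them.

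Values were TPM, reads per gene length scaled to 1000000 in each column. Whole reads could be recovered from them, in all 4353821 and 4241655 for st.19 and 2229177 and 2129599 for st.21. Within a stage the replicates differed by less than the sampling noise. Chi-square per gene was 0.433 at st.19 and 0.33 at st.21, where independent columns give about 1. This is why each stage has an n of 1 here and differences between the stages carry no p-value. Agreement between the 2 columns of a stage, given below for many genes, therefore adds no replication. The st.19 replicates differed in scale by a median of 0.53 on the log2 scale, and a 153-nt ribosomal RNA gene (LOC117869916) held 18.9% and 44.2% of their TPM, against 0.145% and 0.317% at st.21. TPM values and column orders given below are as deposited and carry these differences in scale. A change below is therefore the log2 TPM at st.21 minus that at st.19 after each column was set to its median gene, so that 0 means a change like that of the median gene. The interval given with it is a 95% exact binomial (Clopper-Pearson) interval of the reads in the replicate 1 columns, and it covers counting error only, not differences between embryos. Schwann cell markers were present at both stages, with 15 of 16 listed genes measured, reads of each in every column, and a median change of 0.87. The interval lay above 0 for 12 of them and below 0 for 2, S100B (-0.43) and CDH19 (-0.35). Markers of skeletal muscle (17 of 20 measured, median change 4.32), fibroblasts and perineurium (17 of 18, 1.32) and neurons (19 of 24, -1.19) differed between the stages as well. Medians were also above 0 for immune (6 of 10, 1.79) and erythroid cells (4 of 9, 1.46), with intervals above 0 for 5 and 2 of them. SPI1 (no read at st.19), MPEG1 and TAL1 would not have passed the filter on their st.19 columns alone. Counting these genes therefore adds no support. Markers of proliferating cells (14 of 15, 0.64) were mixed, with 10 intervals above 0 and 2 below, those of MKI67 (-1.35) and AURKA (-0.84). In tissue RNA fewer cells of a type and less RNA per cell cannot be told apart.

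Proteins are degraded in animal cells mainly by the proteasome. Its 20S core is a barrel of outer alpha rings, which form the gate, and inner beta rings, which hold the cutting sites. The 19S cap recognises ubiquitin-tagged proteins, unfolds them with a ring of ATPases and feeds them into the core. Chaperones act before this step. HSP70 proteins bind unfolded segments under the control of J proteins, HSP90 proteins finish the folding of kinases and receptors, CCT folds actin and tubulin, and small HSPs hold unfolding proteins without using ATP. In the ER, secreted and membrane proteins such as myelin protein zero and the collagens are folded by the HSP70 protein BiP, by lectins that read their sugars, and by enzymes that form disulfide bonds.

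These were abundant transcripts. The median member ranked at percentile 85.3 of all genes by mean TPM, with a median of 62.5 TPM against 17.6 TPM over all genes kept. Their summed TPM was 14420 and 9978 at st.19 and 13960 and 14010 at st.21. The median change was -0.10 for the 118 genes and 0.03 for all 15100 genes, whose middle 50% lay between -0.51 and 0.70. Of the members, 12 (10.2%) were higher at st.21 by over 2-fold, against 2507 of all genes (16.6%), and 6 (5.08%) were lower by over 2-fold, against 1542 of all genes (10.2%). The counting interval lay above 0 for 34 members (28.8%, against 29.3% of all genes). It lay below 0 for 38 (32.2%, against 23.0% of all genes) and included 0 for 46 (39.0%), against 7201 of all 15100 genes. The shares of all genes above and below 0 are the background for the interval counts of each class below. They are not matched for abundance: the members were more abundant than most genes, and more reads narrow an interval. The split of 12 higher and 6 lower became 8 and 29 of 118 when TPM was recomputed over protein-coding genes. The median of all genes was then itself -0.47, and 7.27% of all genes were higher and 25% lower by over 2-fold. Under quantile normalization the split was 9 and 16, with 13.6% of all genes higher and 12.2% lower. The member counts moved in the same direction as the shares of all genes, but not to the same extent. The share of members lower by over 2-fold was below that of all genes in the main scaling. It was close to that of all genes with TPM over protein-coding genes and above it under quantile normalization.

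**Figure D1:**
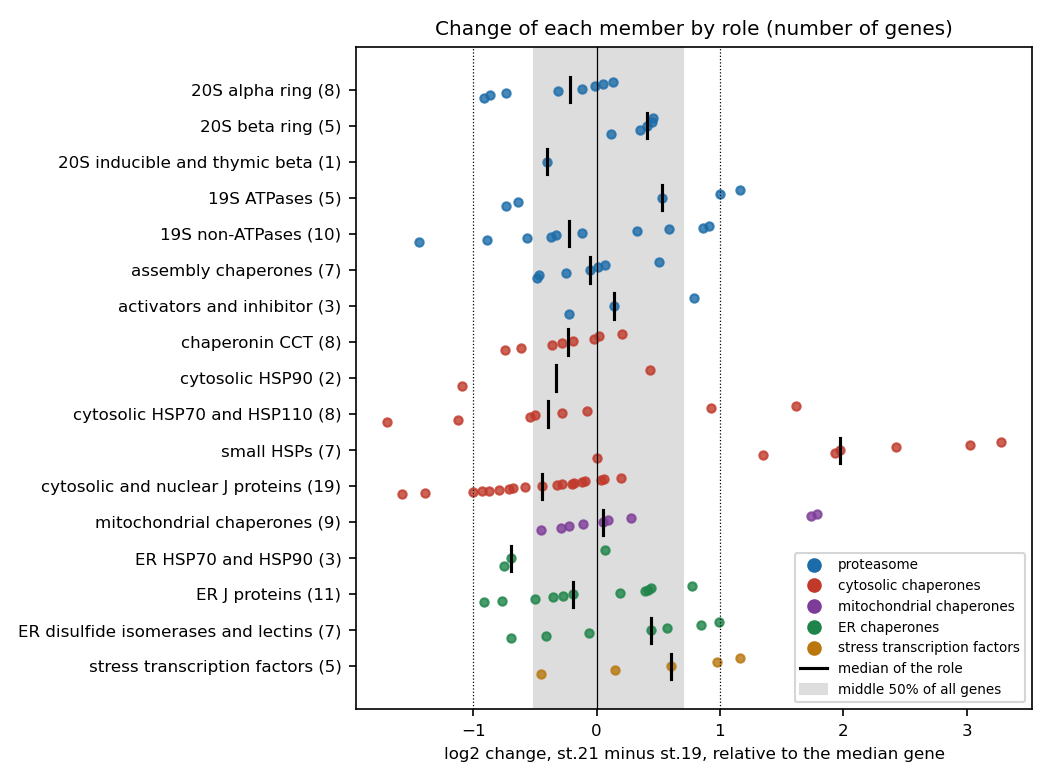
Change of each of the 118 genes between st.19 and st.21, by role. Each point is 1 gene (log2 change relative to the median gene, horizontal axis), the black bar is the median of the role, the grey band spans the middle 50% of all 15100 genes (-0.51 to 0.70), and dotted lines mark a 2-fold change. Small HSPs stand to the right with a median of 1.97, while the cytosolic and nuclear J proteins (-0.44) lie mostly to the left.

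In the 20S core, the subunits of the outer and inner rings differed. Of 5 beta subunits measured, 4 had intervals above 0 and PSMB2 (0.12, interval -0.13 to 0.40) had one that included it, with a highest change of 0.46 for PSMB3 and a median of 0.41 (0.42 over all genes of up to 1500 nt), whereas the 8 alpha subunits had a median of -0.22 and ranged from -0.91 for PSMA3 to 0.13 for PSMA1. The beta subunits' direction did not hold under every scaling: with TPM over protein-coding genes their median was -0.08 (0.39 above the median of all genes), and under quantile normalization it was 0.00. PSMB4, the most abundant subunit gene of the core, had 402 and 280.0 TPM at st.19 and 437 and 436 TPM at st.21. PSMB7, a catalytic subunit that cuts after basic residues, had 194 and 131 TPM at st.19 and 224 and 221 TPM at st.21. In TPM as deposited, where the st.19 columns differ in scale, both st.21 columns were above both st.19 columns for PSMB4 and PSMB7. Their changes were 0.35 (interval 0.17 to 0.53) and 0.45 (interval 0.19 to 0.69). With TPM over protein-coding genes they were -0.15 and -0.05 (0.33 and 0.42 above the median of all genes). Under quantile normalization they were -0.14 and 0.00. PSMA3 had 168 and 118 TPM at st.19 and 75.7 and 77.4 TPM at st.21, so its st.21 columns were below both st.19 columns, and its change was -0.91 (interval -1.33 to -0.55). PSMA4 (-0.73) was the other alpha subunit whose interval lay below 0, while the intervals of PSMA1, PSMA2, PSMA5, PSMA6, PSMA7 and the testis-enriched PSMA8 included 0.

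Because both rings are read in the same column, their ratio does not depend on a scaling factor. The summed TPM of the alpha subunits was divided by that of the beta subunits measured. This gave 1.05 and 1.11 at st.19 and 0.721 and 0.760 at st.21. PSMB5 and PSMB6, catalytic beta subunits, were not measured, so the ratio compares the stages and not whole rings. The immune-type catalytic subunit PSMB9 was close to the limit of detection, with 7 reads in each st.19 column and 1 and 3 reads in the st.21 columns, and its interval (-7.02 to 1.44) allows no direction.

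**Figure D2:**
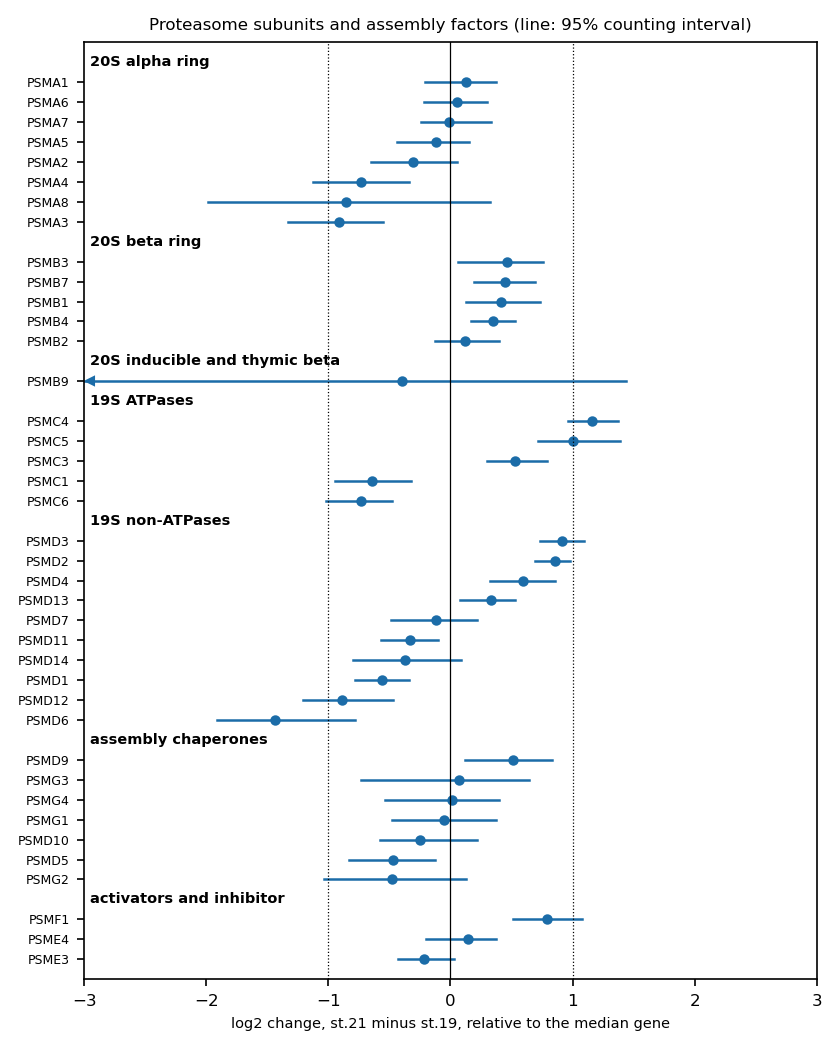
Change of the 39 proteasome genes, with the 95% counting interval as a line (horizontal axis, log2 change relative to the median gene; an arrow marks an interval that leaves the plot). The 5 beta subunits sit between 0.12 and 0.46, and the 19S subunits spread from -1.44 (PSMD6) to 1.16 (PSMC4).

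The 19S cap did not move as a unit. Its ATPases thread the substrate into the core, and 5 of them were measured, while PSMC2 was not among the genes measured. PSMC3, PSMC4 and PSMC5 were higher at st.21 and PSMC1 and PSMC6 were lower, each with an interval that excluded 0. PSMC4 (chromosome 24, 2223823 to 2238731 in the CAS_Tse_1.0 assembly) had 157 and 109 TPM at st.19 and 299 and 297 TPM at st.21. Its st.21 columns were above both st.19 columns, and the change was 1.16 (interval 0.96 to 1.37). The change was 0.70 under quantile normalization and 0.66 with TPM over protein-coding genes, the latter 1.13 above the median of all genes. PSMC5 had 63.2 and 45.6 TPM at st.19 and 111 and 109 TPM at st.21, a change of 1.0 (interval 0.72 to 1.39), which stands at the 2-fold limit. The PSMC5 locus overlaps FTSJ3 and a pair of other annotated genes, and how reads in shared sequence were assigned was not given in the sources used here. In the opposite direction, PSMC6 had 101 and 70.5 TPM at st.19 and 51.5 and 52.3 TPM at st.21, with a change of -0.73 (interval -1.02 to -0.48). PSMC4 transcripts were 1.55 times those of PSMC6 in both st.19 columns and 5.80 and 5.68 times in the st.21 columns, although the proteins take 1 place each in the same ring.

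The 10 non-ATPase subunits of the cap that were measured, which bind ubiquitin chains and hold the scaffold together, were split in the same way. PSMD8 was listed but not measured. PSMD2, PSMD3, PSMD4 and PSMD13 had intervals above 0, and PSMD1, PSMD6, PSMD11 and PSMD12 had intervals below 0. PSMD3, a lid subunit, had 183 and 124 TPM at st.19 and 292 and 283 TPM at st.21. That is higher in both st.21 columns, with a change of 0.91 (interval 0.73 to 1.09). PSMD6, another lid subunit (chromosome 7, 5567180 to 5569206), had 55.1 and 37.2 TPM at st.19 and 19.2 and 15.1 TPM at st.21, from 195, 181, 32 and 24 reads. It was the only proteasome gene of the 39 that was lower by over 2-fold (-1.44, interval -1.91 to -0.78), where 10.2% of all genes were. The PSMD3 to PSMD6 ratio went from 3.32 in both st.19 columns to 15.2 and 18.8 at st.21. PSMD14, the deubiquitinase of the lid, had a change of -0.37 with an interval (-0.80 to 0.09) that included 0.

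None of the genes that assemble or regulate the proteasome passed 2-fold, where 16.6% of all genes were higher and 10.2% lower by that much. Of 7 assembly chaperones, PSMD9 was higher (0.51, interval 0.12 to 0.83) and PSMD5 lower (-0.47, interval -0.83 to -0.13), and the other 5 had intervals that included 0, PSMG2 among them with the lowest change (-0.48). PSMF1, which encodes the proteasome inhibitor PI31, had 52.8 and 36.1 TPM at st.19 and 77.8 and 76.4 TPM at st.21. It was higher in both st.21 columns (0.79, interval 0.51 to 1.08), while the intervals of the activators PSME3 (-0.22) and PSME4 (0.14) included 0.

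Of 25 listed partners of the proteasome in the ubiquitin system, 23 were measured, with a median change of 0.05. The interval lay above 0 for 10 and below 0 for 5, as it did for 29.3% and 23.0% of all genes. NPLOC4, a cofactor of the segregase VCP, had 60.2 and 39.5 TPM at st.19 and 82.8 and 84.6 TPM at st.21, and it was higher in both st.21 columns (0.75, interval 0.49 to 0.90). USP14, a deubiquitinase of the cap, was lowest at -0.68.

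In the cytosol, the small HSPs were higher at st.21 and the other chaperone classes had medians below that of all genes. The 7 small HSPs had a median change of 1.97, and it stayed at 1.48 or above under the scalings tried. Of the 7, 6 were higher by over 2-fold and none was lower, where 16.6% and 10.2% of all genes were. HSPB3 is among these 6 and among the 12 members above. It had no read at st.19 and passed the filter only through its st.21 columns, so counting it adds no support. HSPB6 (HSP20; chromosome 24, 2764188 to 2766882) was the most abundant, with 65.8 and 48.7 TPM at st.19 and 470.0 and 475 TPM at st.21. HSPB1 (HSP27; chromosome 18, 19400913 to 19406278), which binds unfolding proteins and actin, had 15.9 and 10.1 TPM at st.19 and 126 TPM in both st.21 columns. Both genes were several times higher in each st.21 column than in either st.19 column, with changes of 3.03 (interval 2.78 to 3.44) and 3.28 (interval 2.71 to 4.10), at percentiles 99.2 and 99.5 of all genes.

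HSPB8 (HSP22), a partner of the co-chaperone BAG3 in selective autophagy, had 24.0 and 17.1 TPM at st.19 and 53.2 and 52.3 TPM at st.21, a change of 1.35 (interval 1.01 to 1.80). HSPB2, HSPB3 and HSPB7, which in mammals are found mainly in heart and skeletal muscle, were scarce. HSPB2 had 4 reads in each st.19 column and 9 and 10 reads in the st.21 columns, and HSPB7 had 5 reads in each st.19 column and 13 and 10 at st.21. Their intervals excluded 0 but were wide, 0.61 to 4.60 for HSPB2 and 1.08 to 4.50 for HSPB7. No read of HSPB3 (0 in both columns) was found at st.19 and 5 reads were found in either column of st.21, which makes it at least 4.06-fold higher against a floor of 3 reads per column, and with HSPB3 at that bound (2.02 on the log2 scale) the median of the 7 stays at 1.97. The bound takes the 5 reads as exact, and the counting interval of HSPB3 runs from 1.16 with no upper end. HSPB3 overlaps the annotated gene LOC117879118. HSPB11, a subunit of the ciliary transport complex IFT-B that is not a classical small HSP, was the exception in this class, with 4.03 and 3.08 TPM at st.19, 3.09 and 4.21 TPM at st.21 and overlapping columns.

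Markers of muscle were higher at the same time. The 17 skeletal muscle markers summed to 198.9 and 132.9 TPM at st.19 and to 3179 and 3154 TPM at st.21, with reads of each in every column. HSPB6 transcripts came to 0.331 and 0.367 of that sum at st.19 and to 0.148 and 0.150 at st.21, so the muscle markers increased more than HSPB6 did. CRYAB, the alpha-crystallin small HSP and neighbour of HSPB2 (chromosome 21, CRYAB from 13596950 to 13603626 and HSPB2 from 13607909 to 13610580), had 13.8 and 10.4 TPM at st.19 and 31.7 and 32.8 TPM at st.21. Its change was 1.40 (interval 0.62 to 2.52), less than that of the muscle markers' median. UNC45B, a myosin chaperone of striated muscle, changed by 2.82 from 2.12 and 1.52 TPM at st.19. The part of muscle tissue in the small HSP result was not tested.

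**Figure D3:**
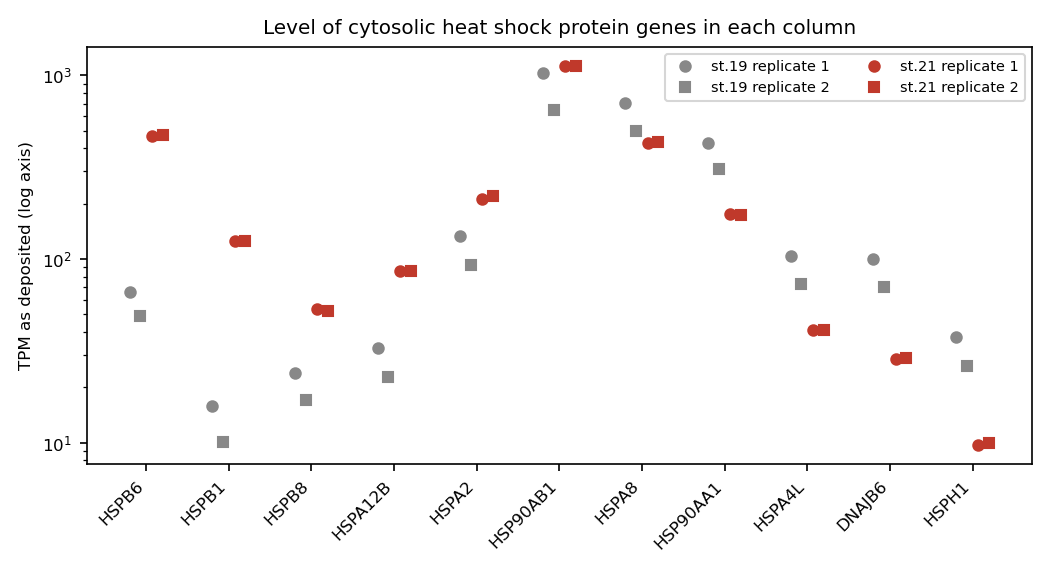
TPM of 11 cytosolic heat shock protein genes in each of the 4 columns (logarithmic vertical axis), grey for st.19 and red for st.21, circles for replicate 1 and squares for replicate 2. HSPB6 goes from 65.8 and 48.7 TPM to 470.0 and 475 TPM, level with HSPA8 at st.21 (428 and 432 TPM), and HSP90AA1 goes down while HSP90AB1 does not (1029 and 649 TPM, then 1126 and 1122 TPM).

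The cytosolic HSP90 genes went apart. HSP90AA1 (chromosome 4, 22327940 to 22339066), the stress-inducible form in mammals, had 430.0 and 308 TPM at st.19 and 176 and 174 TPM at st.21. Its st.21 columns were below both st.19 columns, with a change of -1.09 (interval -1.21 to -0.92). HSP90AB1, the constitutive form, stood at percentile 99.4 of all genes by mean TPM, with 1029 and 649 TPM at st.19 and 1126 and 1122 TPM at st.21. Its change was 0.43 (0.36 in the replicate 1 columns, interval 0.30 to 0.43), and the direction turned to -0.46 under quantile normalization. With TPM over protein-coding genes the change of HSP90AB1 was -0.07, which is 0.41 above the median of all genes. The ratio of HSP90AA1 to HSP90AB1, which no scaling factor alters, was 0.418 and 0.474 at st.19 and 0.156 and 0.155 at st.21. These genes are close paralogs, and the handling of reads that match both was not given in the sources used here.

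Of the 8 HSP70 and HSP110 genes measured, 5 had intervals below 0 and 2 above, where 23.0% and 29.3% of all genes did. HSPA1A, HSPA1B, HSPA1L and HSPA6 were listed but not measured. HSPA8 (HSC70), the constitutive HSP70 that also uncoats clathrin vesicles, had 709 and 499 TPM at st.19 and 428 and 432 TPM at st.21, with a change of -0.50 (interval -0.60 to -0.39). Its locus overlaps 3 other annotated genes, and reads that match its close paralog HSPA2 as well may have been counted for either. HSPH1 (HSP105; chromosome 1, 299787677 to 299817289), a nucleotide exchange factor that resets HSP70, had 37.6 and 26.3 TPM at st.19 and 9.69 and 10 TPM at st.21. HSPA4L, a member of the same HSP110 family, had 104 and 73.4 TPM at st.19 and 40.9 and 41.1 TPM at st.21. Both exchange factors were lower in each st.21 column than in either st.19 column, with changes of -1.70 (interval -2.39 to -1.20) and -1.12 (interval -1.32 to -0.91), and the third of the family, HSPA4, was lower by less (-0.28, interval -0.52 to -0.12).

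HSPA2 and HSPA12B were the HSP70 genes that were higher. HSPA2 had 595 and 573 reads at st.19 and 459 and 462 reads in the smaller st.21 libraries, a change of 0.93 (interval 0.73 to 1.09), and HSPA8 transcripts were 5.34 and 5.37 times those of HSPA2 at st.19 but 2.02 and 1.95 times at st.21. HSPA12B (chromosome 5, 137733361 to 137786141), a distant relative found in mammals mainly in endothelial cells, had 32.8 and 22.9 TPM at st.19 and 86.2 and 86.5 TPM at st.21. Its change was 1.62 (interval 1.40 to 1.87). Its paralog HSPA12A, abundant in mammalian brain, was lower (-0.54, interval -0.75 to -0.40).

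The J proteins of the cytosol and nucleus, which deliver clients to HSP70 and start its ATP cycle, were the most one-sided of the larger classes. Of 19 genes measured, 10 had intervals below 0, none above, and 9 included it, where 23.0% of all genes lay below 0 and 29.3% above. DNAJB1, DNAJB2, DNAJB3, DNAJB7 and DNAJB8 were listed but not measured. The median change was -0.44, with a range from -1.58 to 0.20. DNAJB6 (chromosome 2, 19412184 to 19480615), known for holding back the aggregation of polyglutamine proteins, had 100 and 70.4 TPM at st.19 and 28.5 and 28.8 TPM at st.21. It was lower in both st.21 columns (-1.58, interval -1.98 to -1.23). DNAJC2, a J protein of the ribosome, had 68 reads in each st.19 column and 9 and 11 at st.21 (-1.39, interval -2.82 to -0.63), and its locus overlaps PMPCB. The general HSP70 partners DNAJA1 (215 and 150 TPM at st.19, 112 and 111 TPM at st.21) and DNAJA2 (163 and 114 TPM at st.19, 78.8 and 81.8 TPM at st.21) were lower by 0.71 and 0.79 on the log2 scale. DNAJC5, the cysteine string protein of synaptic vesicles, was lower as well (-0.68, interval -1.13 to -0.46). DNAJB5 had the highest change of the class, 0.20, with an interval (-0.28 to 0.64) that included 0.

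Summed over the class, the small HSPs came to 0.121 and 0.126 of the TPM of these J proteins at st.19 and to 1.30 and 1.29 at st.21. Neuronal markers were mostly lower alongside (14 intervals below 0; NEFL at 0.36, PRPH at 0.33 and RBFOX3 at 0.37 above it), with a summed TPM of 9156 and 6290 at st.19 and 5736 and 5809 at st.21 over 19 of 24 listed genes, each with reads in every column. Their part in the J protein and HSP90AA1 values was not tested.

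**Figure D4:**
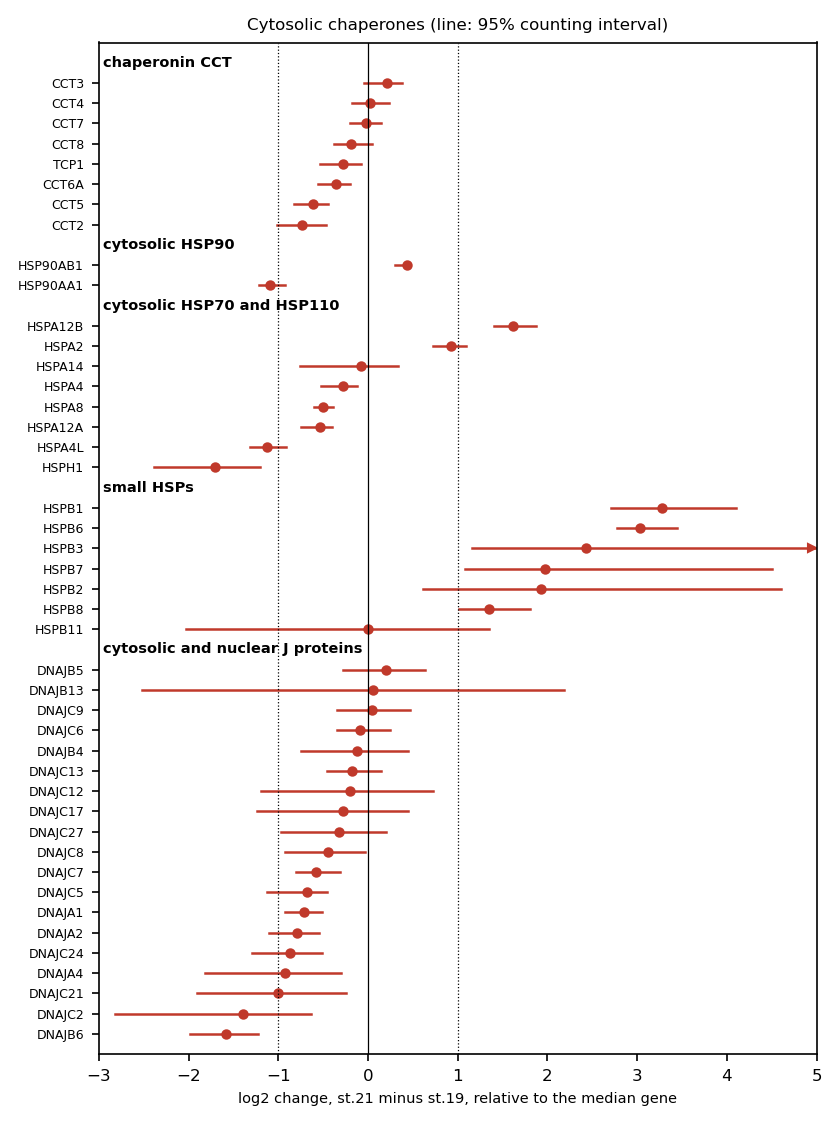
Change of the 44 chaperone genes of the cytosol and nucleus, with the 95% counting interval as a line (horizontal axis, log2 change relative to the median gene; an arrow marks an interval without an upper end). Small HSPs reach 3.28, and 16 of the 19 J proteins lie below 0.

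The 8 CCT genes, whose products form 1 double ring, stayed within a narrower range, from -0.74 for CCT2 to 0.21 for CCT3, with a median of -0.24. CCT2 had 152 and 110.0 TPM at st.19 and 78.1 and 80.5 TPM at st.21. CCT3 had 170.0 and 109 TPM at st.19 and 163 and 160.0 TPM at st.21. The columns of CCT2 did not overlap between the stages and its interval (-1.01 to -0.47) excluded 0. Those of CCT3 overlapped in TPM, and its interval (-0.04 to 0.38) included 0. Set to the median gene, CCT3 changed by 0.17 in replicate 1 and 0.26 in replicate 2. CCT5, CCT6A and TCP1 also had intervals below 0, and CCT4, CCT7 and CCT8 had intervals that included it. Under quantile normalization, and with TPM over protein-coding genes, all 8 were below 0. With TPM over protein-coding genes the median of all genes was itself -0.47, and CCT3 was 0.19 above it.

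The co-chaperones and prefoldin subunits, which serve HSP70, HSP90 and CCT, gave no common direction. Of 28 listed, 23 were measured, with a median of 0.14. With TPM over protein-coding genes it was -0.36, which is 0.11 above the median of all genes. Intervals lay above 0 for 7 and below 0 for 6, as they did for 29.3% and 23.0% of all genes. PFDN4, a prefoldin subunit that passes actin and tubulin to CCT, had 120.0 and 80.9 TPM at st.19 and 41.2 and 31.8 TPM at st.21 (-1.48, interval -1.96 to -0.79). CRYAB and UNC45B, described above, were the members of this list that were higher by over 2-fold.

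In mitochondria, 7 of the 9 chaperone genes lay between -0.45 and 0.28, and a pair of small J protein genes stood apart. HSPD1 (HSP60), the chaperonin of the matrix, had 279 and 192 TPM at st.19 and 194 and 192 TPM at st.21, with a change of -0.29 (interval -0.46 to -0.13). HSPA9 (mortalin), the HSP70 of the matrix, had 161 and 113 TPM at st.19 and 128 TPM in both st.21 columns, and its interval (-0.28 to 0.09) included 0. DNAJC30 (chromosome 18, 22094694 to 22095511), which in mouse neurons is bound to the ATP synthase, had 28.9 and 25.2 TPM at st.19 and 96.6 and 94.7 TPM at st.21. DNAJC4, listed among human mitochondrial proteins, had 32.9 and 22.3 TPM at st.19 and 90.3 and 93.7 TPM at st.21. Both were higher in each st.21 column, with changes of 1.79 (interval 1.47 to 2.63) and 1.74 (interval 1.27 to 2.19), and DNAJC4 overlaps LOC117880965. DNAJC15 had the lowest value, -0.45, from 49 reads in each st.19 column and 16 and 13 at st.21, and its interval included 0.

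Mitochondrial proteases and co-chaperones, 11 of 12 listed, had a median of 0.27, with 4 intervals above 0 and 3 below. With TPM over protein-coding genes their median was -0.23, which is 0.24 above the median of all genes. HSCB, the J protein of iron-sulfur cluster assembly, had 69.4 and 45.4 TPM at st.19 and 152 and 157 TPM at st.21 (1.43, interval 0.99 to 1.78). The protease HTRA2 was higher as well (1.18, interval 0.95 to 1.52), and AFG3L2, a protease of the inner membrane, was lower (-0.93, interval -1.37 to -0.52).

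In the ER, the disulfide isomerases P4HB and PDIA3 were higher at st.21 and the HSP90 protein was lower. None of the 21 chaperone genes passed 2-fold, where 16.6% of all genes were higher and 10.2% lower by that much. P4HB, a disulfide isomerase that is also a subunit of the collagen prolyl hydroxylase, had 411 and 255 TPM at st.19 and 680.0 and 637 TPM at st.21. PDIA3, the disulfide isomerase that works with the lectin chaperones, had 312 and 218 TPM at st.19 and 473 and 485 TPM at st.21. Both genes were higher in each st.21 column, with changes of 0.99 (interval 0.86 to 1.06; 1.02 for the values as deposited) and 0.85 (interval 0.70 to 0.96). Under quantile normalization P4HB changed by 0.42 and PDIA3 by 0.33. PDIA5 was higher (0.44, interval 0.04 to 0.90), PDIA4 was lower (-0.41, interval -0.66 to -0.13) and the interval of PDIA6 (-0.06) included 0.

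HSP90B1 (GRP94; chromosome 1, 97740148 to 97756286), which folds integrins and Toll-like receptors, had 324 and 228 TPM at st.19 and 165 and 164 TPM at st.21. It was lower in both st.21 columns, with a change of -0.75 (interval -0.90 to -0.59). HSPA5 (BiP), the central HSP70 of the ER, had 247 and 171 TPM at st.19 and 223 and 217 TPM at st.21. Its columns overlapped between the stages in TPM, where the st.19 columns differ in scale, and its interval (-0.07 to 0.24) included 0. Set to the median gene, HSPA5 changed by 0.09 in replicate 1 and 0.05 in replicate 2. In the same columns P4HB transcripts were 1.27 and 1.12 times those of HSP90B1 at st.19 and 4.13 and 3.88 times at st.21, and they were 1.67 and 1.49 times those of HSPA5 at st.19 and 3.05 and 2.93 times at st.21.

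The lectin chaperones also separated. CALR (calreticulin), the soluble lectin, had 771 and 554 TPM at st.19 and 966 and 1012 TPM at st.21. CANX (calnexin), its membrane-bound counterpart and a chaperone of the myelin protein PMP22 in mammals, had 368 and 254 TPM at st.19 and 193 and 195 TPM at st.21. CANX was lower at st.21 (-0.69, interval -0.80 to -0.59), and CALR was higher (0.57, interval 0.46 to 0.66) except under quantile normalization, where it was -0.27. The CALR to CANX ratio went from 2.09 and 2.18 to 5.0 and 5.19. CANX overlaps CBY3 and LOC117882245.

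The 11 ER J proteins had a median of -0.19, with 2 intervals above 0 (DNAJC14 and DNAJB11) and 3 below (DNAJB14, DNAJC18 and DNAJC10). DNAJC14 had 29.1 and 18.8 TPM at st.19 and 39.5 and 42.3 TPM at st.21 (0.77, interval 0.37 to 0.98), and DNAJB14 had 31.6 and 22.9 TPM at st.19 and 15.4 and 13.9 TPM at st.21 (-0.91, interval -1.46 to -0.25). DNAJB11 (ERdj3), a secreted partner of BiP, changed by 0.44 (interval 0.13 to 0.73). The intervals of DNAJB9 (-0.19) and DNAJC3 (0.39), targets of the unfolded protein response in mammals, included 0.

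Among 32 listed partners of folding and degradation in the ER, 27 were measured, with a median of 0.03, 5 higher and 1 lower by over 2-fold, where 16.6% and 10.2% of all genes were. The 5 were FKBP10, PPIB, GANAB, SERPINH1 and TXNDC5, and the 1 was TXNDC11 (-1.03, interval -1.25 to -0.74). FKBP10, a prolyl isomerase for procollagen, had 111 and 76.1 TPM at st.19 and 378 and 381 TPM at st.21 (2.02, interval 1.84 to 2.18). PPIB, cyclophilin B of the same pathway, had 490.0 and 342 TPM at st.19 and 1209 and 1236 TPM at st.21 (1.55, interval 1.41 to 1.67), and SERPINH1, the collagen chaperone HSP47, changed by 1.23 (interval 1.10 to 1.35). GANAB, a glucosidase that trims sugars for CALR and CANX, changed by 1.34 and overlaps EML3. The BiP co-chaperone HYOU1 was lower (-0.33, interval -0.50 to -0.13), as were the degradation factors DERL1 (-0.65) and EDEM3 (-0.63), while HERPUD1 (0.85) and OS9 (0.78) of the same pathway were higher. Markers of fibroblasts and perineurium, collagens among them, summed to 8008 and 5442 TPM at st.19 and to 31610 and 31290 TPM at st.21, and their part in the values of P4HB, FKBP10, PPIB and SERPINH1 was not tested.

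**Figure D5:**
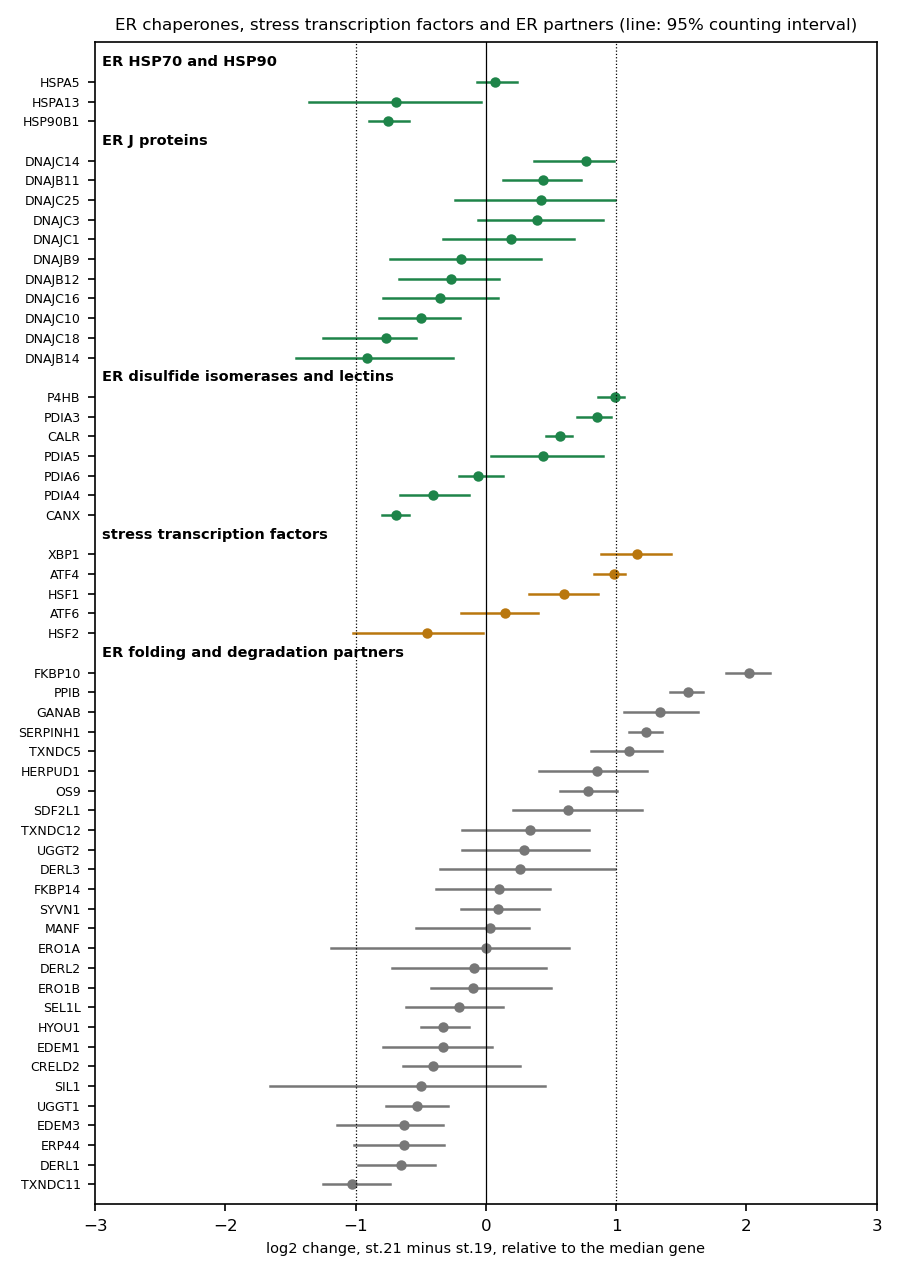
Change of the ER chaperones (green), the stress transcription factors (orange) and the listed ER partners (grey), with the 95% counting interval as a line (horizontal axis, log2 change relative to the median gene). P4HB (0.99) and PDIA3 (0.85) lie opposite HSP90B1 (-0.75) and CANX (-0.69), and FKBP10 (2.02) is highest.

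The stress transcription factors of the selection had a median change of 0.60, and 3 of the 5 had intervals above 0. With TPM over protein-coding genes the median was 0.10, which is 0.57 above the median of all genes. XBP1, which in its spliced form drives ER chaperone genes, had 66.7 and 45 TPM at st.19 and 125 TPM in both st.21 columns. ATF4, the factor of the integrated stress response, was much more abundant, with 492 and 332 TPM at st.19 and 808 and 815 TPM at st.21. Both were higher in each st.21 column, by 1.16 (interval 0.88 to 1.42) and 0.98 (interval 0.83 to 1.07), and both were lower than this under quantile normalization (0.89 and 0.27). Gene-level values do not separate spliced from unspliced XBP1, and ATF4 is controlled mainly at translation, so their transcript levels are not a measure of their activity. HSF1, the main heat shock factor, had 55.3 and 35.5 TPM at st.19 and 70.8 and 65.9 TPM at st.21 (0.60, interval 0.33 to 0.86), and HSF2 had 24.2 and 16.8 TPM at st.19 and 14.6 and 15.5 TPM at st.21 (-0.45, interval -1.02 to -0.02). ATF6 had an interval (-0.19 to 0.40) that included 0.

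Other genes of the unfolded protein response, 15 of 18 listed, had a median of 0.28, with 5 intervals above 0 and 2 below. With TPM over protein-coding genes their median was -0.21, which is 0.26 above the median of all genes. The largest change was that of ATF3, an immediate early gene of stress and nerve injury, with 39.5 and 27.1 TPM at st.19 and 5.14 and 4.39 TPM at st.21 (-2.81, interval -3.63 to -2.07). CREB3L1 (OASIS), a factor for the secretion of collagen, had 39.1 and 28.2 TPM at st.19 and 144 and 142 TPM at st.21 (2.08, interval 1.92 to 2.34). ATF5 (1.17, overlapping LIG1) and the phosphatase subunit PPP1R15A (1.14), both targets of ATF4 signalling in mammals, were higher, whereas the intervals of the ATF4 targets ASNS (-0.32), TRIB3 (0.28) and CHAC1 (0.43) included 0. The sensors ERN1 (-0.09) and EIF2AK3 (0.02) had intervals that included 0.

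Relative to the median gene, 8 of the 12 members that were higher by over 2-fold and all 6 that were lower remained past 2-fold under every alternative tried. PSMC4, PSMC5 and XBP1 fell short in at least 1 of them, and HSPB7 was removed by a filter of 5 TPM. Of the 34 members with an interval above 0, the sign turned for 9 with TPM over protein-coding genes (0 relative to the median gene, which moved to -0.47) and for 6 under quantile normalization, and of the 38 with an interval below 0 it turned for none.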

How the data were processed

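Peripheral nerve RNA-seq of *T. scripta* embryos at st.19 and st.21 was used. The labels and the methods name the TruSeq Stranded mRNA kit. The methods give it for a batch prepared at CSUN, beside samples sequenced at Arraystar, and do not say which of these gave the columns. The authors aligned the reads with HISAT2 to CAS_Tse_1.0, counted them per gene with featureCounts, filtered on CPM with edgeR 3.42.4 and deposited log2 TPM values of 15289 genes, with a prior count added before the logarithm. The strand setting of the counting was not given in the sources used here. All columns were used (0 left out), and stage and replicate come from the sample titles. Columns were matched to them by name. The st.21 column names carry an extra digit that no label explains, and a supplementary table of the study has a pair of st.21 entries, so which st.21 sample these columns hold is not known.

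From the deposited values, whole reads were recovered for 100% of genes (tolerance 0.0001 reads), with prior counts of 2.861 and 2.729 at st.19 and 1.231 and 1.179 at st.21, and all 3626 lengths listed in the study's table were recovered. Recovery and intervals were tested on simulated data. Each column was centred on its median over the 15100 genes kept (1 TPM or more in 2 or more columns), and changes are means over the columns of a stage. With 1 sample per stage no test across stages was run, so genes were named by size (over 2-fold), as the highest and lowest of each role, the most abundant of each group, the catalytic beta subunits, the transcription factors, and the 3 largest changes of each partner list. Further members were named after their values were seen, to account for each class. Members and lists were chosen with earlier results of these data known.

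Symbols were matched to RefSeq for the same assembly (118 of 118 members, of which 23 overlap another gene). Symbols outside the table, promoter motifs and protein sequences were not analysed here. Some genes that the naming rule picks are not reported here. Alternatives were other scalings, log2(TPM + 1), other filters and leaving out each column. Tools were Python 3.11.15 with matplotlib 3.10.9, scipy 1.17.1, pandas 2.3.3 and numpy 2.4.6.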

Additional observations from a re-analysis of the deposited data

How the results depend on the processing

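No paired analysis was possible because no result comes from a test and the columns of a stage were counted as 1 sample. With TPM over protein-coding genes the median of all genes was -0.47 against 0.03. The group medians were then -0.50 for the proteasome, -0.73 for cytosolic, -0.45 for mitochondrial and -0.56 for ER chaperones, and 0.10 for the stress transcription factors. Relative to all genes they were -0.03, -0.26, 0.02, -0.09 and 0.57. Under quantile normalization the proteasome median was -0.36 and that of the stress transcription factors 0.27. Members lower by over 2-fold numbered 29 and 16 under these scalings, against 6. Of all genes, 25% and 12.2% were then lower by over 2-fold, against 10.2%. Values as deposited, effective library sizes, log2(TPM + 1) and filters of none or 5 TPM kept the group medians and counts within their limits. Leaving out 1 column at a time gave 11 to 13 members higher and 6 to 8 lower. PSMB9 turned from -0.40 to 0.08 without replicate 1 of st.21. The depth of 2129599 to 2229177 reads at st.21 limits genes with few reads, such as HSPB2, HSPB3, HSPB7, HSPB11, DNAJB13 and PSMB9. Differences between embryos could not be measured with 1 sample per stage.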

Other observations

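Gene length and abundance went with the changes of all genes. Over genes of up to 1500 nt the median change was 0.42, against 0.13 for 1500 to 2500 nt, 0.03 for 2500 to 4000 nt and -0.14 above 4000 nt. The 118 proteasome and chaperone genes had lower medians in each of these classes, 0.13 (31 genes), -0.07 (42), -0.21 (26) and -0.28 (19). Above 100 TPM, where 41 members lie, the median was 0.05 for the members and 0.50 for all 1256 genes. The 6 short cytosolic chaperone genes had a median of 2.18, and the other 38 lie in the longer classes, whose medians were -0.36, -0.20 and -0.30. The short genes are the small HSPs HSPB1, HSPB2, HSPB3 (no read at st.19) and HSPB6 and the J proteins DNAJC17 (-0.28) and DNAJB13 (0.06). The small HSPs HSPB7 (1.97) and HSPB8 (1.35) lie in longer classes. Length and abundance were not used to correct any value above.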
